A study of Mus musculus with 24 samples.

Results

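The enzymes and regulators that build and break down triglyceride in the heart were represented by 10 genes, Gpam, Agpat3, Lpin1, Dgat1, Dgat2, Pnpla2, Abhd5, G0s2, Lipe and Mgll, each found as the row whose Ensembl mouse gene identifier carries that symbol. They are 10 of 52350 genes counted in each library. RNA sequencing of whole hearts was used to ask how a single exercise bout changes cardiac transcription at opposite ends of the day. All 24 mice were male wild-type C57Bl/6 animals of 12 weeks, kept in equal periods of light and darkness, and handled under red light in the dark phase. The 4 groups held 6 mice each and are named by zeitgeber time (ZT, hours after lights on): exercised mice at ZT12, when the active phase begins (ZT12-EX), sedentary mice at ZT12 (ZT12-SED), exercised mice at ZT0, when the rest phase begins (ZT0-EX), and sedentary mice at ZT0 (ZT0-SED). The exercised mice, which had been habituated to the treadmill, ran once for 60 min at 10 m/min with no incline, and how long after the run the heart was taken is not stated in the labels. Each group was spread over both flow cells, with replicates 1 to 3 on flow cell 1 and replicates 4 to 6 on flow cell 2, and the labels call every replicate a separate biological one.

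Heart muscle takes up fatty acids, stores part of them as triglyceride in lipid droplets and releases them again for oxidation. Synthesis starts with Gpam, the mitochondrial enzyme that adds the first fatty acid to glycerol phosphate, continues with acyltransferases such as Agpat3 and with lipins such as Lpin1, which removes the phosphate to give diacylglycerol, and ends with Dgat1 or Dgat2, which add the last fatty acid. Breakdown starts with Pnpla2 (adipose triglyceride lipase), which needs its coactivator Abhd5 and is blocked by the small protein G0s2, and continues with Lipe (hormone-sensitive lipase) on diacylglycerol and Mgll on monoacylglycerol.

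The promoter sequences of 4 members are shown because G0s2 and Agpat3 were the members called between times of day, and because Lipe and Mgll were the members whose upstream sequence held a motif of clock or fasting factors. They are from RefSeq, build GRCm38.p6, written 5′ to 3′ along the gene's own strand, and capitals mark the motifs found.
G0s2, chr1:193273189-193273288, minus strand, the 100 bases before the start: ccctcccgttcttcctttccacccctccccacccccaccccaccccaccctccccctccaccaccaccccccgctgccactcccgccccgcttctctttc
Agpat3, chr10:78351701-78351800, minus strand, the 100 bases before the start: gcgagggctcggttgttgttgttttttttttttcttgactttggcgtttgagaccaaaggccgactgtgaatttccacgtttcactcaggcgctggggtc
Mgll, chr6:88724162-88724411, plus strand, the 250 bases before the start: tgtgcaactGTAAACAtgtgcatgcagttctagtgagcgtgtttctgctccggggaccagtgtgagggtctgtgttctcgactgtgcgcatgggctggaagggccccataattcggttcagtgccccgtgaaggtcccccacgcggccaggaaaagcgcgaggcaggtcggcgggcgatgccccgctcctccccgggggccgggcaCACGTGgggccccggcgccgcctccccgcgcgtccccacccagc
Lipe, first start, chr7:25396088-25396187, minus strand: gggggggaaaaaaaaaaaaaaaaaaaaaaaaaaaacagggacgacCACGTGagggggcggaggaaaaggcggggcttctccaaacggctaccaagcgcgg
Lipe, second start, chr7:25390193-25390272, minus strand: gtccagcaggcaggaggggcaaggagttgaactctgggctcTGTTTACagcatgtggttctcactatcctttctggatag

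A window was matched by symbol for 8 of the 10 members, and not for Dgat1 and Dgat2. The 250 bases before each start were searched on both strands for the E-box CACGTG, the letters bound by the clock proteins Clock and Bmal1, for the element TAGGTCA of the nuclear receptors Ror and Rev-erb, for the D-box TTATGTAA and for the Foxo element TGTTTAC. The E-box was found in 6.02% of 32851 windows, the Ror element in 2.23%, the D-box in 0.819% and the Foxo element in 3.17%. Mgll held an E-box beginning at position -44 and a Foxo element, on the opposite strand, at -241. Lipe held an E-box at -155 of its first start and a Foxo element at -119 of its second start. None of these letters occurred in the windows of the other matched members, and no overlap between motifs was found. These are matches of letters and were not tested for binding.

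Library totals were 9697334 to 23067191 counts, and 15294 genes passed the filter on low counts. All 10 members passed it, with between 11 counts (Lipe) and 5626 counts (Dgat2) in a library. Cardiomyocyte markers summed to 29596 to 167716 CPM across libraries (CPM, a gene's count relative to the library total after TMM scaling), and those of hepatocytes to at most 7.67 CPM. The clock genes followed the time labels. Of 16 clock genes, 9 were higher and 3 lower at ZT12 in sedentary hearts, and the same counts were found in exercised hearts, with Bmal1, which the annotation lists as Arntl, at log2 fold changes of -4.21 ± 0.26 and -4.60 ± 0.27. The flow cells differed in base composition. The Spearman correlation across genes between a library's log2 CPM, relative to the mean library, and the GC content of the genes lay between -0.72 and -0.58 for ZT12-EX and between -0.82 and -0.76 for ZT12-SED on flow cell 1, against -0.23 to -0.18 for ZT0-EX and -0.51 to 0.24 for ZT0-SED there, and 0.44 to 0.70 in all groups on flow cell 2. Members had a GC content of 45.7% (Abhd5) to 57.0% (Pnpla2), with a median of 55.5%, against 49.6% over all tested genes. The libraries ZT12-SED 1, ZT12-SED 2 and ZT12-EX 4 correlated least with the rest.

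Levels were compared between members per kilobase of exon. G0s2 had 82.1 ± 57.9 CPM per kb over the 24 hearts (SD) and Dgat2 had 59.1 ± 23.6. These leading members did not keep a fixed order, since G0s2 stood above Dgat2 in 5 of 12 hearts of flow cell 1 and 10 of 12 of flow cell 2. Pnpla2 followed with 42.6 ± 22.5 CPM per kb, below Dgat2 in 23 of 24 hearts and above Mgll in 23 of 24. Mgll had 20.2 ± 8.21, Gpam 17.1 ± 4.19 and Agpat3 13.9 ± 5.55 CPM per kb, and the upper one of each neighbouring pair led in 17 and 16 of 24 hearts. Abhd5 had 8.18 ± 1.96 and Lpin1 7.12 ± 2.54 CPM per kb, and the lowest levels were those of Lipe with 4.22 ± 2.30 and Dgat1 with 3.85 ± 0.949. Lipe exceeded Dgat1 in 1 of 12 hearts of flow cell 1 and in 12 of 12 of flow cell 2, so their order turned with the flow cell. The same held for Gpam above Agpat3 (11 and 5 of 12) and for Abhd5 above Lpin1 (10 and 5 of 12).

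**Figure D1:**
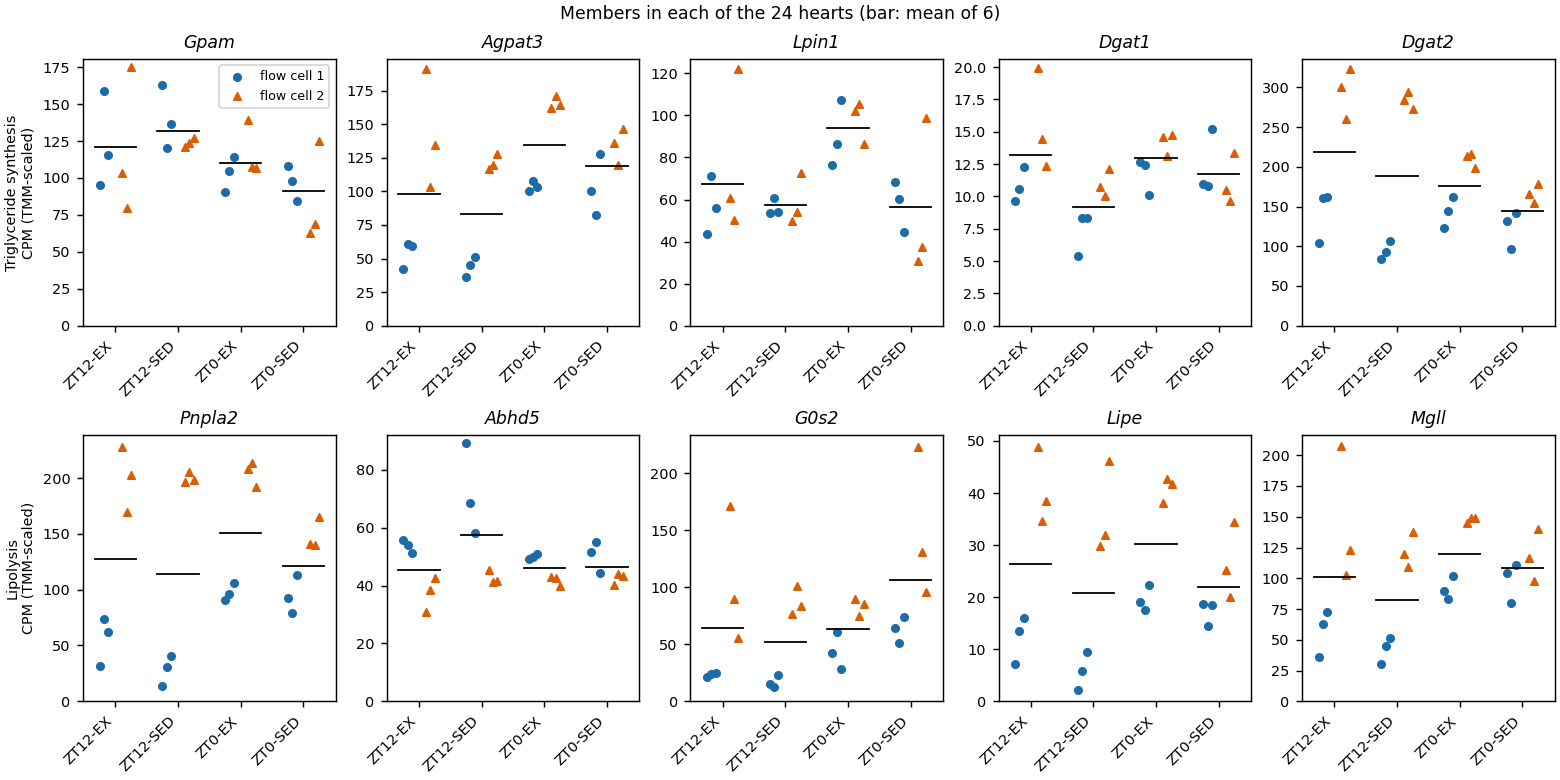
Level of each of the 10 genes in each of the 24 hearts, in TMM-scaled CPM, with synthesis genes in the upper row and lipolysis genes in the lower row; circles are flow cell 1, triangles flow cell 2, and bars the mean of 6 hearts. For Pnpla2 the flow cell 1 hearts of ZT12-SED lie at 13.6 to 40.7 CPM and the flow cell 2 hearts at 196 to 205 CPM.

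Time of day was compared first in sedentary hearts, ZT12-SED against ZT0-SED. The inhibitor G0s2 and the acyltransferase Agpat3 were lower at ZT12, with log2 fold changes of -1.32 ± 0.30 and -0.69 ± 0.20 (SE). In that edgeR fit none of the 10 members rose past the threshold, while DESeq2 called Gpam higher and GC offsets brought Dgat2 past it. The 2 members called, both lower, compare with 5.2% of all genes called in either direction and 2.74% called lower, that is 376 genes higher and 419 lower, a split that GC offsets turned to 327 higher and 204 lower. The median log2 fold change was -0.43 over the members and -0.01 over all genes. The 8 cardiomyocyte markers had a median of -0.59 there, with 2 of 8 positive, and edgeR called 0 of them, with 4 at an unadjusted p under 0.05, and DESeq2 4. They summed to 32579 to 61682 CPM in ZT12-SED hearts and 46000 to 81281 CPM in ZT0-SED hearts. Mitochondrial genes took 40.7% to 55.1% of the counts in ZT12-SED hearts of flow cell 1, against 25.5% to 34.2% in ZT0-SED hearts there, and 14.7% to 20.7% against 8.35% to 23.7% on flow cell 2. The part of these shares in the members' values was not tested. At an unadjusted p under 0.05 there were 5 members, against 33% of all genes. Tissue was taken whole, so a smaller number of cells of a type and less RNA per cell cannot be told apart for any of these values.

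Gpam ranged from 120.3 CPM through a median of 126 to 163 CPM in ZT12-SED hearts, against 62.7, 91.1 and 125 CPM in ZT0-SED hearts. Every ZT12-SED heart lay above the ZT0-SED median, while the groups overlapped in range. The log2 fold change was 0.53 ± 0.19 with an adjusted p of 0.0801, and its difference of mean log2 CPM was 0.53 on the first flow cell and 0.61 on the second. DESeq2 called it, at an adjusted p of 0.0304.

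Agpat3 had 36.3 CPM at the lowest, 83.8 at the median and 128 at the highest in ZT12-SED hearts, against 82.3, 124 and 146 CPM in ZT0-SED hearts. The 3 ZT12-SED hearts of flow cell 1, at 36.3, 45.4 and 50.9 CPM, lay below all ZT0-SED hearts, and the other three, at 117 to 128 CPM, lay within the ZT0-SED range. The means were 82.9 ± 42.8 CPM in ZT12-SED and 119 ± 23.7 CPM in ZT0-SED (SD, n = 6 each), with an adjusted p of 0.0476. Flow cell 1 gave a difference of mean log2 CPM of -1.21 and flow cell 2 one of -0.14, and with offsets for GC content the log2 fold change was -0.27 ± 0.12 with an adjusted p of 0.225. The call was also lost in 8 of 12 fits that left out 1 heart.

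Lpin1 had 49.95, 53.9 and 72.6 CPM at the lowest, median and highest in ZT12-SED hearts, against 30.7, 52.2 and 98.6 CPM in ZT0-SED hearts. The ZT12-SED hearts lay inside the ZT0-SED range, and the log2 fold change was 0.02 ± 0.24 (adjusted p = 0.966). Dgat1 had 5.37, 9.18 and 12.1 CPM in ZT12-SED hearts and 9.62, 10.9 and 15.2 CPM in ZT0-SED hearts. Its log2 fold change was -0.38 ± 0.17 (adjusted p = 0.126), and 3 ZT12-SED hearts, all from flow cell 1, lay below every ZT0-SED heart.

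Dgat2 split by flow cell. On flow cell 2 the ZT12-SED hearts had 273, 284 and 294 CPM, against 154, 166 and 178 CPM in ZT0-SED hearts. On flow cell 1 they had 83.8, 93.3 and 106 CPM in ZT12-SED, against 96.3, 131 and 142 CPM in ZT0-SED. The groups were apart, with ZT12 above, on flow cell 2 and overlapped, with ZT12 mostly below, on flow cell 1. The share of all genes apart on flow cell 2 was not counted. Over both flow cells the log2 fold change was 0.22 ± 0.19 with an adjusted p of 0.423.

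With offsets for GC content, Dgat2 was the single member called between the sedentary groups, at 0.80 ± 0.13 and an adjusted p of 0.000331. In that fit 3.47% of all genes were called, and the median of the members was 0.00 against 0.01 over all genes. The adjusted log2 CPM of Dgat2 spanned 7.48 to 8.17 in ZT12-SED hearts and 6.80 to 7.13 in ZT0-SED hearts, with no overlap. The share of all genes without overlap was not counted. The offsets moved ZT12-SED 1 from 6.39, the lowest unadjusted value of its group, to 8.17, the highest adjusted one. The flow cells fitted alone with the offsets gave 0.82 (adjusted p = 0.0191) on flow cell 1 and 0.77 (adjusted p = 0.219) on flow cell 2. The value was 0.69 (adjusted p = 0.000693) without the 3 least correlated libraries, and the 12 fits with offsets that left out 1 heart gave 0.70 to 0.85, each of them called. All of these fits use the offsets, so they are no check of the offsets themselves. Without offsets the 12 fits that left out 1 heart gave 0.14 to 0.32, with 0 called. The unadjusted difference of mean log2 CPM on flow cell 1 was -0.37, opposite in sign to the value with offsets.

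Pnpla2, the lipase that opens triglyceride breakdown, had 13.6, 118 and 205 CPM in ZT12-SED hearts at the lowest, median and highest, against 78.7, 127 and 165 CPM in ZT0-SED hearts. The ZT12-SED hearts lay on either side of the ZT0-SED range, the 3 of flow cell 1 below it and the 3 of flow cell 2 above it. The log2 fold change over both was -0.59 ± 0.32 (adjusted p = 0.192), from -1.85 on the first flow cell and 0.43 on the second. Lipe also differed in sign between the flow cells, -1.78 against 0.44 (-0.47 ± 0.32 over both, adjusted p = 0.290). Mgll had -1.23 against 0.06 (-0.59 ± 0.24 over both, adjusted p = 0.0985). With GC offsets over both flow cells, Pnpla2 was at -0.06, Lipe at -0.04 and Mgll at -0.09. The coactivator Abhd5 was at 0.50 against 0.00 (0.26 ± 0.13 over both, adjusted p = 0.168). The 12 fits with GC offsets that left out 1 heart gave Abhd5 -0.03 to 0.07. The part of base composition in these values was not tested beyond the offsets.

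G0s2 had 12.4, 49.4 and 101 CPM at the lowest, median and highest in ZT12-SED hearts, against 50.9, 85.1 and 223 CPM in ZT0-SED hearts. The 3 ZT12-SED hearts of flow cell 1, at 12.4 to 22.7 CPM, lay below every ZT0-SED heart, and those of flow cell 2, at 76.1 to 101 CPM, lay mostly below the ZT0-SED hearts of that flow cell, at 96.0 to 223 CPM. The means were 51.7 ± 39.3 CPM in ZT12-SED and 107 ± 63.6 CPM in ZT0-SED (SD, n = 6 each), with an adjusted p of 0.0124. The direction was the same on both flow cells, at -1.94 and -0.71, and the call held in all 12 fits that left out 1 heart, at -1.46 to -1.18. Without the 3 least correlated libraries the value was -0.97 (adjusted p = 0.0344). With GC offsets it was -0.77 ± 0.22, with an adjusted p of 0.0527, and nearly equal on flow cell 1 (-0.75) and flow cell 2 (-0.77). With the offsets G0s2 was called on neither flow cell alone, and in 2 of 12 fits that left out 1 heart. Without offsets its call was lost on flow cell 2 alone and without the flow cell term.

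**Figure D2:**
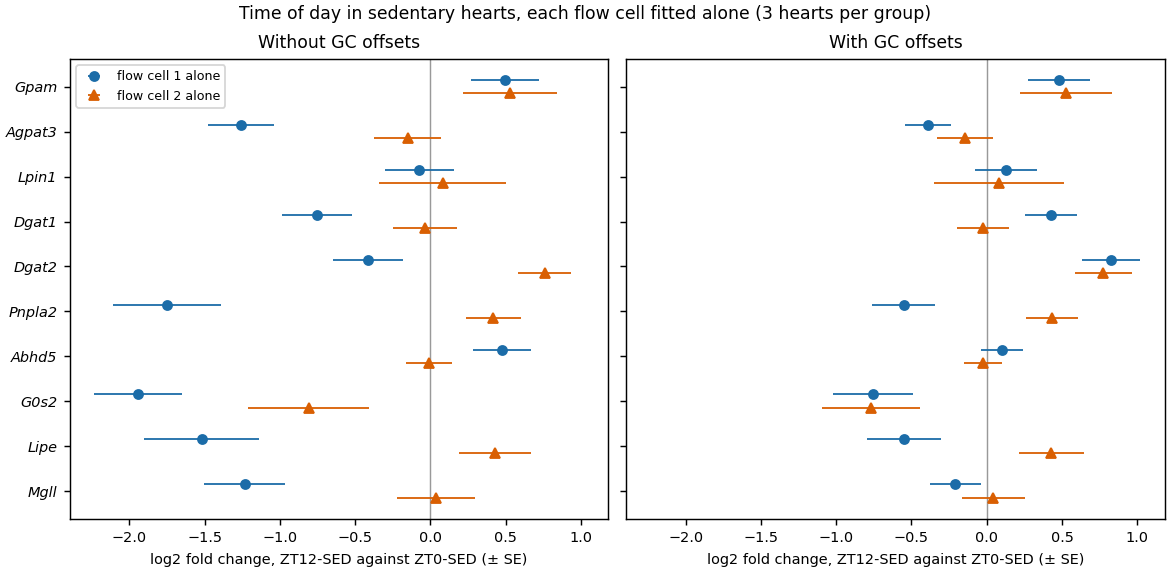
Log2 fold change (± SE) of each member between ZT12-SED and ZT0-SED, from fits to each flow cell alone (circles flow cell 1, triangles flow cell 2; 3 hearts per group), without GC offsets on the left and with them on the right. G0s2 lies below 0 and Gpam above 0 on both flow cells in both panels, while Dgat2 is above 0 on both flow cells only in the panel with offsets.

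Fitted alone, flow cell 1 called 6 members, Agpat3, Dgat1, Pnpla2, Lipe, Mgll and G0s2, all lower in ZT12-SED. On that flow cell 43.5% of all genes were called in either direction and 24.8% were called lower. Flow cell 2 alone called 0 members by edgeR and 0.231% of all genes, with 2 members and 4.46% of all genes at an unadjusted p under 0.05. The Spearman correlation across genes between the fold change and GC content was -0.70 for this comparison, where genes are not independent replicates. The part of base composition in the fold changes without offsets was not tested beyond the offsets.

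In exercised hearts, ZT12-EX against ZT0-EX, edgeR called 0 of 10 members and 1.65% of all genes. DESeq2 also called 0, and 1 member, Agpat3, had an unadjusted p under 0.05, against 14.3% of all genes. The median log2 fold change was -0.33 over the members and 0.02 over all genes. Agpat3 had 42.6, 81.9 and 191 CPM at the lowest, median and highest in ZT12-EX hearts, against 100.1, 135 and 171 CPM in ZT0-EX hearts. The 3 ZT12-EX hearts of flow cell 1 lay below every ZT0-EX heart and ZT12-EX 4 lay above all of them. The log2 fold change was -0.57 ± 0.20 with an adjusted p of 0.179, and it was called without the 3 least correlated libraries, which include ZT12-EX 4, at -0.74 and an adjusted p of 0.00795.

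Dgat2 had 105, 211 and 324 CPM at the lowest, median and highest in ZT12-EX hearts, against 123, 180.4 and 217 CPM in ZT0-EX hearts. The groups overlapped, and the log2 fold change was 0.23 ± 0.19 (adjusted p = 0.602). With GC offsets it was 0.48 ± 0.12, with an adjusted p of 0.0374, where 2.64% of all genes were called. The adjusted log2 CPM was 7.45 to 7.95 in ZT12-EX hearts and 6.98 to 7.37 in ZT0-EX hearts, with no overlap. The share of all genes without overlap was not counted. The 12 fits with offsets that left out 1 heart gave 0.41 to 0.52, and in 11 of them the call was lost, with adjusted p up to 0.0907.

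Lpin1 had 43.7, 58.4 and 122 CPM in ZT12-EX hearts, against 76.6, 94.4 and 107 CPM in ZT0-EX hearts. In ZT12-EX 5 of 6 hearts lay below every ZT0-EX heart and 1, replicate 6, lay above, with a log2 fold change of -0.49 ± 0.24 (adjusted p = 0.365). That heart held 917 CPM of fast skeletal muscle transcripts, and 0 of the 10 muscle markers had a positive log2 fold change in this comparison, with a median of -1.52. Without the 6 libraries rich in those transcripts Lpin1 was at -0.58 (adjusted p = 0.289). The part of those transcripts in the Lpin1 values was not tested. G0s2 had 21.6, 40.2 and 171 CPM in ZT12-EX hearts, against 28.3, 67.8 and 89.9 CPM in ZT0-EX hearts. The groups overlapped, at -0.30 ± 0.30 (adjusted p = 0.686), where flow cell 1 gave -0.82 and flow cell 2 gave 0.19. The other 6 members, Gpam, Dgat1, Pnpla2, Abhd5, Lipe and Mgll, had log2 fold changes of -0.43 (Pnpla2) to 0.13 (Gpam), with adjusted p of 0.508 or more. The time-of-day comparisons in sedentary and exercised hearts share no library, and the test of the difference between them is the same as that of the difference between the exercise effects.

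**Figure D3:**
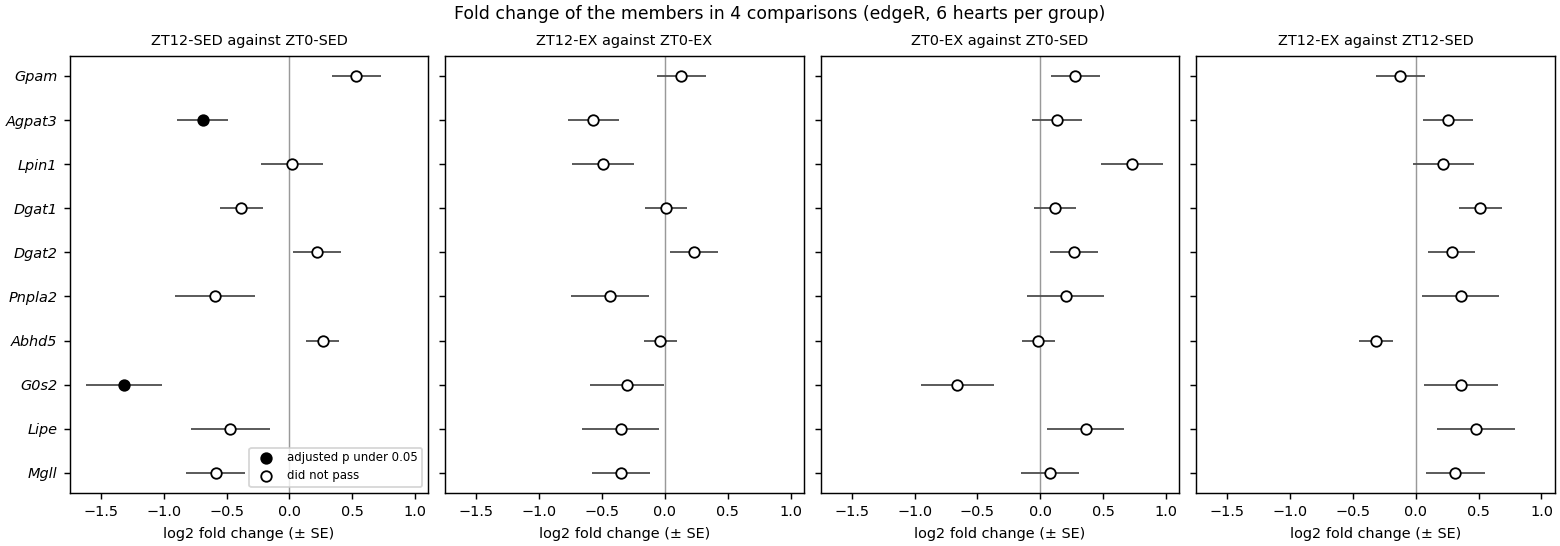
Log2 fold change (± SE) of each member in 4 comparisons, from the edgeR fit to all 24 hearts; filled points have an adjusted p under 0.05. The filled points are Agpat3 and G0s2 in ZT12-SED against ZT0-SED.

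Exercise at ZT0, ZT0-EX against ZT0-SED, gave 0 of 10 members called by edgeR and by DESeq2, where edgeR called 1.08% of all genes. Unadjusted p under 0.05 was found for 2 members, Lpin1 and G0s2, against 10.4% of all genes. The median log2 fold change was 0.17 over the members and -0.01 over all genes. Lpin1 had 76.6, 94.4 and 107 CPM at the lowest, median and highest in ZT0-EX hearts, against 30.7, 52.2 and 98.6 CPM in ZT0-SED hearts. All 6 ZT0-EX hearts lay above the ZT0-SED median and 3 above every ZT0-SED heart. The log2 fold change was 0.73 ± 0.25 with an adjusted p of 0.236, and the differences on the flow cells were 0.65 and 1.01. Without ZT0-SED 6 it was 0.96, the one of 12 such fits under the threshold, with an adjusted p of 0.0421.

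The level of Lpin1 was correlated with that of fast skeletal muscle transcripts. Its log2 CPM, centred on each flow cell, had a correlation of 0.76 with the mean of those markers over the 24 libraries, as a description. The 10 markers summed to 12.8 to 2701 CPM in ZT0-EX hearts, with 760 CPM or more in all 3 of flow cell 2, and to 10.3 to 614 CPM in ZT0-SED hearts, with 614 CPM in replicate 6 alone and at most 25.0 CPM in the others. On flow cell 1, where no ZT0 library held over 16.3 CPM of them, Lpin1 was at 76.6 to 107 CPM in ZT0-EX and 44.3 to 68.3 CPM in ZT0-SED, with no overlap between the 3 hearts of each. The share of all genes without overlap there was not counted. Leaving out the 6 libraries rich in these transcripts leaves ZT0-EX with its 3 hearts of flow cell 1. The log2 fold change of Lpin1 was then 0.81 ± 0.22 (adjusted p = 0.236), against 0.73 ± 0.25 with all libraries. The part of skeletal muscle transcripts in the Lpin1 values was not tested.

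G0s2 had 28.3, 67.8 and 89.9 CPM at the lowest, median and highest in ZT0-EX hearts, against 50.9, 85.1 and 223 CPM in ZT0-SED hearts. Of the ZT0-EX hearts, 2 lay below every ZT0-SED heart and 5 below the ZT0-SED median. The log2 fold change was -0.66 ± 0.29 (adjusted p = 0.445), where flow cell 1 gave -0.58 and flow cell 2 gave -0.77. With GC offsets and without the 3 least correlated libraries it was called, at -0.72 and an adjusted p of 0.0258, and with the offsets alone, where 0 members and 1.71% of all genes were called, it was -0.71 with an adjusted p of 0.112. The other 8 members had log2 fold changes of -0.02 (Abhd5) to 0.36 (Lipe), with adjusted p of 0.578 or more.

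Exercise at ZT12, ZT12-EX against ZT12-SED, gave 0 of 10 members called by edgeR and by DESeq2, where edgeR called 0.294% of all genes. Unadjusted p under 0.05 was found for 2 members, Dgat1 and Abhd5, against 16.4% of all genes. The medians were 0.30 over the members and 0.06 over all genes. The cardiomyocyte markers had a median of 0.52, with 7 of 8 positive, and on flow cell 1 mitochondrial genes took 32.4% to 36.6% of the counts in ZT12-EX hearts, against 40.7% to 55.1% in ZT12-SED hearts. On flow cell 2 they took 2.70% to 20.6% against 14.7% to 20.7%. The library at 2.70%, ZT12-EX 4, also had the highest sum of cardiomyocyte markers, 167716 CPM. The part of these shares in the members' values was not tested here either. Dgat1 had 9.61, 12.3 and 19.9 CPM in ZT12-EX hearts at the lowest, median and highest, against 5.37, 9.18 and 12.1 CPM in ZT12-SED hearts. In ZT12-EX 4 hearts lay above every ZT12-SED heart, with a log2 fold change of 0.51 ± 0.17 (adjusted p = 0.204) and 0.57 and 0.48 on the flow cells. With GC offsets Dgat1 was at 0.15 ± 0.14. Abhd5 had 30.7, 46.9 and 55.6 CPM in ZT12-EX hearts, against 41.3, 51.7 and 89.2 CPM in ZT12-SED hearts. The groups overlapped, at -0.32 ± 0.13 (adjusted p = 0.271), and the value with GC offsets was -0.16 ± 0.08. The other 8 members had log2 fold changes of -0.12 (Gpam) to 0.48 (Lipe), with adjusted p of 0.413 or more.

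White adipocyte markers differed in level between libraries. The 8 markers summed to 30.5 to 152 CPM in ZT12-EX hearts, to 16.4 to 197 CPM in ZT12-SED hearts, to 30.3 to 99.8 CPM in ZT0-EX hearts and to 21.4 to 90.2 CPM in ZT0-SED hearts. On flow cell 1 the sums were 30.5 to 67.7 CPM (ZT12-EX), 16.4 to 19.3 (ZT12-SED), 30.3 to 38.5 (ZT0-EX) and 21.4 to 49.2 (ZT0-SED). On flow cell 2 they were 102 to 152, 50.4 to 197, 66.3 to 99.8 and 37.0 to 90.2 CPM, in the same order. Cidec, Retn, Cfd and Adig had 0 counts in 1 ZT12-SED library and Lep in 2, and no other group had a library at 0 for any of the 8. Of the 7 markers tested, edgeR and DESeq2 called 0 between ZT12-EX and ZT12-SED, with 3 at an unadjusted p under 0.05, and all 7 had a positive log2 fold change there, with a median of 1.06. Over the 24 libraries, centred on each flow cell, the correlation with the mean of these markers was 0.52 for Dgat1, 0.47 for Lipe, 0.45 for Dgat2 and -0.49 for Abhd5. With that mean as a term in the fit, G0s2 was called between ZT12-SED and ZT0-SED, and with GC offsets as well Dgat2 was at 0.79 with an adjusted p of 0.000906.

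The difference between the exercise effects, at ZT12 minus at ZT0, was called for 0 of 10 members and 0% of all genes by edgeR. DESeq2 called 0 members and 5 genes, and edgeR had an unadjusted p under 0.05 for 1 member and 8.02% of all genes. That member was G0s2, with a difference of 1.02 ± 0.41 (adjusted p = 0.571), from 0.36 at ZT12 and -0.66 at ZT0, and with the same sign on flow cell 1 (1.12) and flow cell 2 (0.90). Lpin1 had -0.51 ± 0.35 and Gpam -0.40 ± 0.27 (adjusted p = 0.588 for both), and the other 7 lay between -0.30 (Abhd5) and 0.40 (Dgat1).

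Ratios of counts within a library compare genes of nearly equal GC content and were chosen after their values were seen, so they are given without a test. Dgat2 and Dgat1 have 56.3% and 56.5% GC and merged exon lengths of 3083 and 3056 bases. The ratio of Dgat2 to Dgat1 was 10.9, 15.1 and 26.2 at the lowest, median and highest in ZT12-EX, 11.2, 19.0 and 29.3 in ZT12-SED, 9.71, 14.0 and 16.5 in ZT0-EX and 8.89, 12.7 and 16.05 in ZT0-SED. On flow cell 2 the ZT12-SED hearts were at 22.5 to 29.3 and the ZT0-SED hearts at 13.4 to 16.05, with no overlap, and on flow cell 1 they were at 11.2 to 15.6 and 8.89 to 12.0, which overlapped. G0s2 and Pnpla2 have 56.4% and 57.0% GC but unequal merged exon lengths, 871 and 3020 bases. The ratio of the inhibitor G0s2 to its target lipase Pnpla2 was 0.272, 0.467 and 0.751 in ZT12-EX and 0.388, 0.455 and 1.10 in ZT12-SED. It was 0.268, 0.437 and 0.629 in ZT0-EX and 0.582, 0.675 and 1.59 in ZT0-SED. Its median was highest in ZT0-SED, and ZT12-SED 1, at 1.10, was the one ZT12-SED library above the ZT0-SED median. That value rests on 78 counts of G0s2 and 71 of Pnpla2, in the shallowest library.

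**Figure D4:**
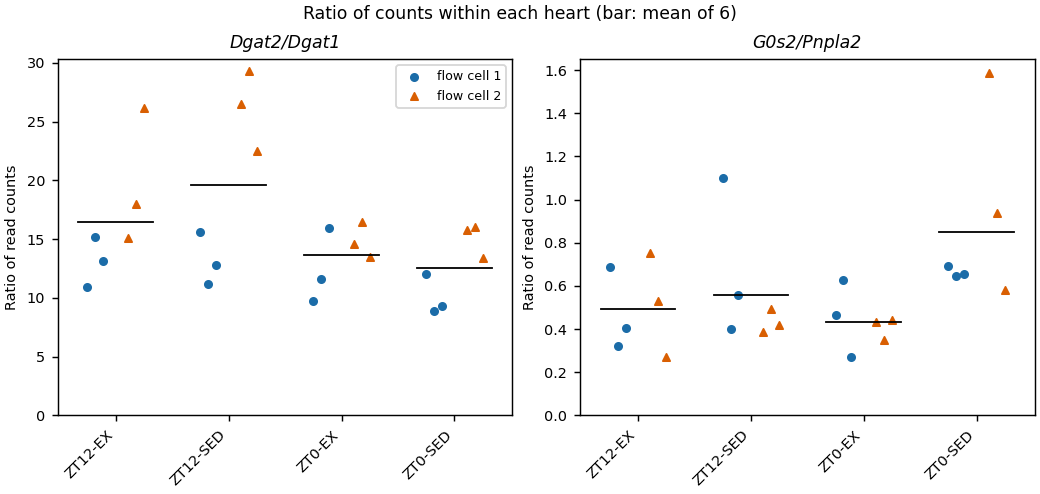
Ratio of read counts of Dgat2 to Dgat1 and of G0s2 to Pnpla2 within each of the 24 hearts; circles are flow cell 1, triangles flow cell 2, bars the mean of 6. The Dgat2 to Dgat1 ratio of ZT12-SED hearts on flow cell 2 lies at 22.5 to 29.3, above all ZT0-SED hearts. The ratios were chosen after their values were seen.

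Members were correlated with each other across hearts to different degrees. After centring on each flow cell, the Pearson correlation of log2 CPM over 24 libraries was 0.96 between Pnpla2 and Lipe, 0.95 between Agpat3 and Mgll and 0.91 between Pnpla2 and Mgll, and Abhd5 was negatively correlated with Dgat1 (-0.88), Lipe (-0.85) and Pnpla2 (-0.82). All genes of a library share its depth and base composition. Both differed between libraries of the same flow cell, and centring does not remove that, so the values are descriptions. By the same measure over all genes, those most like G0s2 were Cotl1 (0.93), Pym1 (0.92) and Psenen (0.92), and those most like Agpat3 were Spg7 (0.97), Letm1 (0.97) and Asb2 (0.96).

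The rest of the pathway was described by lists of named genes. Their counts stand beside the shares over all genes. For time of day in sedentary hearts 5.2% of all genes were called by edgeR and 33% had an unadjusted p under 0.05, and in exercised hearts 1.65% and 14.3%. For exercise at ZT0 these shares were 1.08% and 10.4%, for exercise at ZT12 0.294% and 16.4%, and for the difference between the exercise effects 0% and 8.02%. Of 16 tested genes for the other steps of glycerolipid synthesis, 0 were called by edgeR in either time-of-day comparison, with 6 at an unadjusted p under 0.05 and 1 called by DESeq2 in sedentary hearts, and 1 and 0 in exercised hearts. At ZT0, exercise was accompanied by a rise of Lpin2, a paralogue of Lpin1 with the same activity, to 10.3 ± 2.17 CPM in ZT0-EX, against 6.36 ± 1.23 CPM in ZT0-SED (0.68 ± 0.16, adjusted p = 0.0305). It was 1 of 16. The call held with GC offsets (0.66, adjusted p = 0.00885) and in 4 of 12 fits that left out 1 heart, and was lost without the 6 libraries rich in skeletal muscle transcripts and on each flow cell alone, where the values were 0.79 and 0.52. Agpat1, another acyltransferase, had -0.63 ± 0.21 between ZT12-SED and ZT0-SED (adjusted p = 0.0670), where flow cell 1 gave -1.25 and flow cell 2 gave -0.03. With exercise at ZT12, 0 of the 16 were called by either tool and 2 had an unadjusted p under 0.05. The list medians were 0.12 for time of day in sedentary hearts, -0.13 for time of day in exercised hearts, 0.06 for exercise at ZT0 and 0.01 for exercise at ZT12.

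Of 20 lipid droplet and lipolysis partners, 2 fell and 1 rose by edgeR between ZT12-SED and ZT0-SED, against 5.2% of all genes called, with a median of -0.10. In that comparison 9 had an unadjusted p under 0.05, against 33% of all genes, and DESeq2 called 4. In the other comparisons between groups edgeR called 0. Those comparisons had 5 (time of day in exercised hearts), 2 (exercise at ZT0) and 5 (exercise at ZT12) at an unadjusted p under 0.05, and DESeq2 called 2 in the first of them and 0 in the others. Cidea, a droplet fusion protein, averaged 13.5 ± 7.24 CPM in ZT12-SED and 23.4 ± 5.53 CPM in ZT0-SED (-0.96 ± 0.24, adjusted p = 0.0253). Plin2, which coats droplets, averaged in ZT12-SED 0.663 times its level in ZT0-SED, which was 49.8 ± 7.59 CPM (-0.61 ± 0.16, adjusted p = 0.0346). Lipa, the lysosomal acid lipase, averaged 30.1 ± 7.18 CPM in ZT12-SED and 20.9 ± 3.65 CPM in ZT0-SED (0.52 ± 0.15, adjusted p = 0.0452). None of these 3 calls held with GC offsets or on flow cell 2 alone.

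Of 9 tested genes for the uptake of plasma triglyceride, Angptl4, a secreted inhibitor of lipoprotein lipase, was the one called by edgeR, with 3.49 ± 2.44 CPM in ZT12-SED and 10.9 ± 4.89 CPM in ZT0-SED. Its log2 fold change was -1.56 ± 0.37 (adjusted p = 0.0160), and -1.45 with GC offsets, with the call kept. It was lost on flow cell 2 alone, at -1.03 against -2.07 on flow cell 1, and with the compared groups alone. DESeq2 called 3 of the 9, and 6 had an unadjusted p under 0.05, against 33% of all genes. The list's median was -0.37 in that comparison, and 0 of the 9 were called in the other comparisons by edgeR or DESeq2, with 2 at an unadjusted p under 0.05 for exercise at ZT12. In exercised hearts at ZT12 the list's median was 0.56 relative to sedentary hearts, with 6 of 9 positive. Angptl4 was at 0.98 ± 0.37 (adjusted p = 0.243) and Cd36 went the other way, at -0.69 ± 0.28 (adjusted p = 0.264).

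Of 17 tested genes of lipolytic signalling, 0 were called by edgeR in either time-of-day comparison, with 3 at an unadjusted p under 0.05 (33% of all genes) and 1 called by DESeq2 in sedentary hearts, and 5 (14.3% of all genes) and 2 in exercised hearts. Irs2, an adaptor of the insulin receptor, rose with exercise at ZT0, to 25.5 ± 13.0 CPM in ZT0-EX, against 3.14 ± 0.747 CPM in ZT0-SED (2.99 ± 0.39, adjusted p = 0.000107), a call lost on flow cell 2 alone, at 3.09. Adrb1, the main beta-adrenergic receptor of heart muscle, fell with exercise at ZT12, to 4.64 ± 1.84 CPM in ZT12-EX, against 9.59 ± 3.17 CPM in ZT12-SED (-1.11 ± 0.25, adjusted p = 0.0492). The call for Adrb1 was lost with GC offsets (-1.71), on flow cell 1 (-1.53) and flow cell 2 (-0.55) alone, and held in 3 of 12 fits that left out 1 heart.

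Of 16 transcription factors known to act on triglyceride genes, 4 rose and 0 fell between ZT12-SED and ZT0-SED. They were Nr1d2, a clock repressor (2.57 ± 0.29), Cebpb (2.13 ± 0.39), Foxo3, a factor restrained by insulin signalling (1.05 ± 0.18), and Klf15, a glucocorticoid-induced factor (0.97 ± 0.21), with adjusted p of 5.34e-06, 0.00181, 0.00112 and 0.00761. On flow cell 2 alone none of the 4 was called, with values of 1.02 (Foxo3) to 1.98 (Nr1d2), and Klf15 was not called on flow cell 1 alone either, at 0.51. The Klf15 call was also lost without the flow cell term and with the compared groups alone. In exercised hearts Nr1d2 alone passed between ZT12-EX and ZT0-EX (1.54 ± 0.28, adjusted p = 0.00305). That call was lost without the flow cell term and on flow cell 2 alone, where the value was 1.11. Exercise at ZT0 was accompanied by rises of Klf15, to 47.4 ± 15.4 CPM in ZT0-EX, against 17.9 ± 5.36 CPM in ZT0-SED (1.40 ± 0.21, adjusted p = 0.000317), and of Cebpb, to 20.01 ± 11.4 CPM in ZT0-EX, against 6.55 ± 2.61 CPM in ZT0-SED (1.52 ± 0.38, adjusted p = 0.0488). For Klf15 at ZT0 the call was lost without the flow cell term and on each flow cell alone, where the values were 1.37 and 1.40. The call for Cebpb at ZT0 held in 4 of 12 alternatives and was lost in the others, among them GC offsets, where the value was 1.61, and in all 12 fits that left out 1 heart, at 1.38 to 1.64 with adjusted p of 0.0517 to 0.150. At ZT12, 0 of the 16 were called by edgeR or DESeq2 with exercise, with 2 at an unadjusted p under 0.05. For the difference between the exercise effects 0 were called by either tool, with 4 at an unadjusted p under 0.05. The share of this list called in sedentary time, 4 of 16, stands beside 2 of 10 for the members and 5.2% of all genes. In that comparison 8 of the 16 had an unadjusted p under 0.05, against 33% of all genes, and DESeq2 called 5. The list was chosen with earlier results of these data known and includes clock genes, so these shares are descriptions.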

How the data were processed

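The authors deposited raw read counts for every gene, made with Trimmomatic 0.39, HISAT2 2.2.1 and featureCounts 2.0.1 on build GRCm39, per the submitters' processing notes. Tool settings, annotation release and strand handling are not stated there, so overlapping genes are uncertain. Symbols were matched by Ensembl identifier to a GRCm38 annotation, and 257 identifiers had none. Members, lists, alternatives and the naming rule (all members, the genes of each list past the threshold with the smallest p, and the 3 genes most correlated with each called member) were chosen with earlier results of these data known.

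edgeR 4.0.16 (R 4.3.3) fitted quasi-likelihood models to all 24 libraries, with group and flow cell as terms, after filterByExpr and TMM. Adjusted p are Benjamini-Hochberg values over 15294 genes, with 0.05 as threshold. Fold changes carry an SE. Single-flow-cell values subtract mean log2 CPM (prior count 2) unless a fit is named. GC offsets subtract each library's lowess curve (span 0.3) on transcript GC content of the same annotation. DESeq2 1.42.0 was an alternative. A count of 3 equals 0.130 to 0.575 CPM. The 60 within-group library pairs all differed beyond counting noise. The procedure was run on counts simulated for ZT12-SED against ZT0-SED. They held no flow cell effect and no dependence on GC content, so the run does not cover these.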

Additional observations from a re-analysis of the deposited data

How the results depend on the processing

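Between ZT12-SED and ZT0-SED, where 2 of 10 members passed, 1 passed with DESeq2-style size factors, without the filter, with the compared groups alone, without the 3 least correlated libraries, with the white adipocyte term and with GC offsets (in that fit Dgat2, in the others G0s2), 0 passed without the flow cell term and on flow cell 2 alone, 6 on flow cell 1 alone, and 3 with DESeq2 and without the 6 libraries rich in skeletal muscle transcripts; leaving out 1 heart gave 1 to 3, with 3 without ZT0-SED 6. With the replicate block, the replicate number in place of flow cell, 1 passed (G0s2, -1.26, adjusted p = 0.0226), and 608 genes against 795; of 36 correlations between same-numbered hearts, 33 were over 0.1 for deviations from group means and 15 for deviations from group and flow cell means (range -0.45 to 0.78), the most, 5 of 6, for ZT12-EX with ZT12-SED (0.06 to 0.48) and 4 of 6 for ZT12-EX with ZT0-SED. No pair of groups had all 6 over 0.1 beyond the flow cell, so the numbers were not taken as pairs. For exercise at ZT12 the block left 0 members and 31 genes, against 45. GC offsets combined with other choices, all added after the data were seen, gave 1 (flow cell 1 alone, without the 3 libraries, with the adipocyte term) or 0 (flow cell 2 alone), 2 with the replicate block and 3 without the muscle-rich libraries. Between ZT12-EX and ZT0-EX, with 0 members, 1 passed without the 3 libraries or with GC offsets, 2 with both, and 0 to 1 when 1 heart was left out (1 without ZT12-EX 4). For exercise at ZT0, with 0, 1 passed with GC offsets and the replicate block (Lpin1) or GC offsets without the 3 libraries (G0s2), and 0 to 1 when 1 heart was left out (1 without ZT0-SED 6); with GC offsets these ranges were 1 to 3, 0 to 2 and 0 to 2. For exercise at ZT12 and for the difference, 0 members passed under every alternative run. The number of genes passing between ZT12-SED and ZT0-SED was 478 without the filter, 2917 with DESeq2, 129 without the flow cell term, 6552 and 35 on flow cells 1 and 2, 243 with the compared groups alone, 3133 without the muscle-rich libraries, 437 without the 3 libraries, 434 with the adipocyte term and 305 to 2808 without 1 heart (without ZT0-SED 3 and without ZT0-SED 6). Between ZT12-EX and ZT0-EX it was 252, but 535 with DESeq2, 62 without the flow cell term, 17 on flow cell 2, 86 without the muscle-rich libraries, 1017 without the 3 libraries, 403 with GC offsets and 135 to 455 without 1 heart (without ZT12-EX 1 and without ZT12-EX 4). For exercise at ZT0 it was 165, but 267 with DESeq2, 51 without the flow cell term and 51 without the muscle-rich libraries, 39 and 13 on flow cells 1 and 2, 413 with the compared groups alone, 381 without the 3 libraries, 261 with GC offsets and 91 to 176 without 1 heart. For exercise at ZT12 it was 45, but 226 with DESeq2, 10 without the flow cell term, 20 and 4 on flow cells 1 and 2, 14 with the compared groups alone, 1 with the adipocyte term and 22 to 77 without 1 heart. For the difference it was 0, but 1 without the filter, without the 3 libraries or with GC offsets, 5 with DESeq2 and 0 to 1 without 1 heart. Lipa turned to -0.073 (adjusted p = 0.864) with GC offsets on flow cell 1 alone. G0s2 and Agpat3 were lower in ZT12-SED under every alternative run. Members called under an alternative did turn: between ZT12-SED and ZT0-SED, Dgat2, called at 0.80 with GC offsets, was at -0.41 on flow cell 1 alone without them, and of those called on flow cell 1 alone Pnpla2, Lipe and Mgll were at 0.42, 0.43 and 0.04 on flow cell 2 alone, and Dgat1 at 0.43 on flow cell 1 with offsets. The causes of these differences were not tested. Of 24 libraries, the shallowest had 9697334 counts, and fits to 1 flow cell rest on 3 hearts per group.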
